A study of Danio rerio with 15 samples.

Results

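The mitochondrial ribosomal protein genes were the rows of the count table whose zebrafish Ensembl gene name, ignoring case, began with mrpl or mrps followed by a digit and which had at least 10 counts in 2 or more libraries. There were 73 such genes among 32105 rows, 46 named for the large subunit and 27 for the small subunit. All 73 rows that matched the name pattern passed the count rule, and all 73 were among the 18020 genes tested. The RNA came from kdrl-positive cells that had been isolated from embryos 28 hours after fertilization. The receptor kdrl binds vascular endothelial growth factor, which makes a sort on it one for endothelial cells in the main. The labels do not give the reporter line.

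There were 3 genotypes, namely wildtype embryos, sf3b1 mutants and siblings of these mutants. The mutant allele, and which sf3b1 alleles the siblings carried, are not given in the labels. All embryos, the wildtypes included, overexpressed Stat3, which carries cytokine signals to the nucleus. The protein was the wildtype form (WT-Stat3) or a constitutively active one (CA-Stat3). The promoter that drove the construct is not given in the labels, and no embryos without overexpression were analysed here. This gave 6 groups and 15 libraries, with 2 libraries of WT-Stat3 and 3 of CA-Stat3 in every genotype. Since the labels tie no replicate to a clutch or a sort of its own, the spread behind each p-value is that between libraries and may be technical.

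Mitochondria have their own ribosome, which translates the few proteins encoded by mitochondrial DNA, all of them core subunits of the respiratory chain and the ATP synthase in vertebrates. Its RNA comes from mitochondrial DNA, whereas its proteins are encoded in the nucleus, made in the cytosol and imported. Part of the proteins descend from the bacterial ribosome and the rest were added in mitochondria, and the small subunit reads the messenger RNA while the large subunit makes the peptide bond. Sf3b1 belongs to the spliceosome, where it holds the branch point of the intron within the SF3b complex.

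The sf3b1 transcript was at 170 to 208 CPM (counts scaled to the same library size) in the wildtype libraries, 157 to 172 in the siblings and 82.0 to 108 in the mutants. Library totals were 6212802 to 8170371 counts in wildtypes, 5161557 to 8059498 in siblings and 3625121 to 6506853 in mutants. The 73 genes together took 1740 to 5531 counts per library, and a single gene 1 to 233 counts, so counting error alone is wide for the low members. Replicate 2 of the mutant WT-Stat3 group stood apart: it had the lowest total, its most abundant row took 39.5% of its counts against 16.3% to 27% in the others, and 18512 genes were detected in it against 21680 to 23425. The summed CPM and the medians of the averaged comparisons with wildtypes, with siblings and between constructs are given with and without it. Counts of genes without overlap between libraries include it. The markers of endothelial cells summed to 2345 to 3652 CPM in wildtypes, 1289 to 3014 in siblings and 2041 to 3390 in mutants, and of 6 tested 0 were called between mutants and wildtypes, while 2 were higher in mutants than in siblings (median 0.44), or 1 with library totals alone.

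Summed transcripts of mitochondrial ribosomal proteins were higher in 4 of the 5 sf3b1 mutant libraries than in any wildtype or sibling library, and in the fifth only with TMM scaling (a factor per library that evens out differences in composition). Summed over the 73 genes, the wildtype WT-Stat3 libraries had 504 and 510 CPM and the wildtype CA-Stat3 libraries 533, 533 and 552. The sibling WT-Stat3 libraries had 565 and 549 CPM and the sibling CA-Stat3 libraries 581, 542 and 578. The mutant WT-Stat3 libraries had 737 and 606 CPM and the mutant CA-Stat3 libraries 797, 996 and 864. With this scaling all 5 mutant libraries lay above all 10 others, and within the mutants all 3 CA-Stat3 libraries lay above both WT-Stat3 libraries. The lowest mutant value, 606, was that of the library that stood apart, and without it the mutants spanned 737 to 996. Its scaling factor was 0.793, against 0.904 to 1.09 in the others. In CPM of the library total, with no such factor, that library had 480.0, below the wildtypes (525 to 561) and the siblings (530.4 to 616), and the other 4 mutant libraries had 718 to 899.

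With TMM scaling both subunit sums were highest in the mutants. The large subunit sum averaged 323 ± 13.1 CPM in wildtypes, 356 ± 11 in siblings and 494 ± 83.0 in mutants (SD, n = 5 each). Its ranges of 309 to 337, 342 to 368 and 387 to 615 did not overlap between any of the 3 genotypes. The small subunit sum averaged 203 ± 8.30 CPM in wildtypes, 207 ± 7.24 in siblings and 306 ± 63.2 in mutants. Here wildtypes (194 to 215) and siblings (199 to 213) overlapped, and the mutants (220 to 381) lay above both. With library totals alone the mutant library that stood apart fell below all others in both sums, at 306 for the large and 174 for the small subunit. The other mutant libraries stayed above, at 453 to 556 and 265 to 345, against 323 to 386 and 195 to 230 in wildtypes and siblings. The lowest sibling value of the large sum, 335, then lay within the wildtype range of 323 to 352. The ratio of the large to the small sum was 1.54 to 1.69 in wildtypes, 1.68 to 1.76 in siblings and 1.48 to 1.76 in mutants, so the mutant range held all but 1 of the other libraries. These sums were given no test, because the genes were chosen with results of these data known. In bulk RNA, more cells of a type with a high level and more RNA per cell cannot be told apart.

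**Figure D1:**
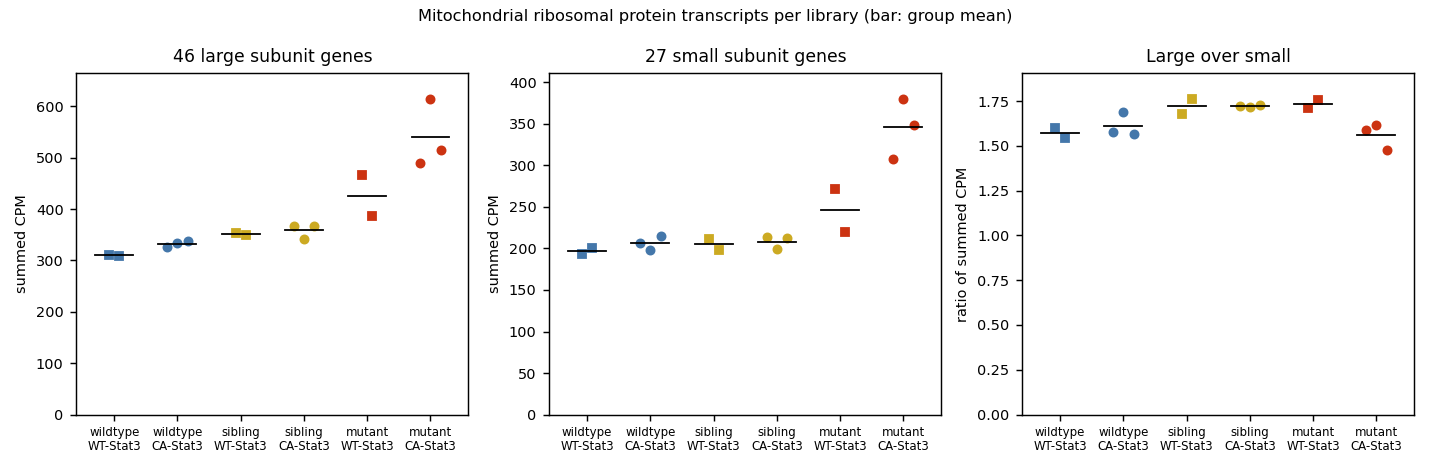
Summed CPM of the 46 large subunit genes, summed CPM of the 27 small subunit genes and the ratio of both sums, by group; each point is a library (squares WT-Stat3, circles CA-Stat3) and each bar a group mean. With TMM scaling, as drawn, the mutant points lie above those of wildtypes and siblings in both sums, whereas the ratios of all 15 libraries fall between 1.48 and 1.76.

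Gene by gene, 29 of the 73 were higher in mutants than in wildtypes and 0 were lower at an adjusted p under 0.05 (edgeR quasi-likelihood test, Benjamini-Hochberg adjustment over all genes tested, averaged over both constructs). Among all genes 13.9% were called higher and 14.8% lower, against 39.7% and 0% of these genes. The called genes were 19 of 46 in the large and 10 of 27 in the small subunit. Their log2 fold changes ran from 0.48 to 2.04 with a median of 0.99, and 14 of the 29 were over 2-fold. Of the 44 that were not called, 34 had an estimate above 0 and 10 below 0, between -0.63 and 1.07. The median log2 fold change was 0.61 for the large subunit and 0.49 for the small subunit, beside -0.03 for all genes tested. The count was 17 when libraries were scaled by their totals alone, which moved the median of all genes to -0.18. Of all genes 5257 were called with that scaling and 5169 in the main fit. The count of these genes also fell without replicate 1 or 2 of wildtype WT-Stat3 or replicate 1 of mutant WT-Stat3. Each of these fits leaves 1 library in a group, and the last held calls in both directions. Without replicate 1 of mutant WT-Stat3 the medians were 0.46 for the large and 0.29 for the small subunit, beside -0.15 for all genes. Without the library that stood apart they were 0.66 and 0.61, beside -0.02.

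**Figure D2:**
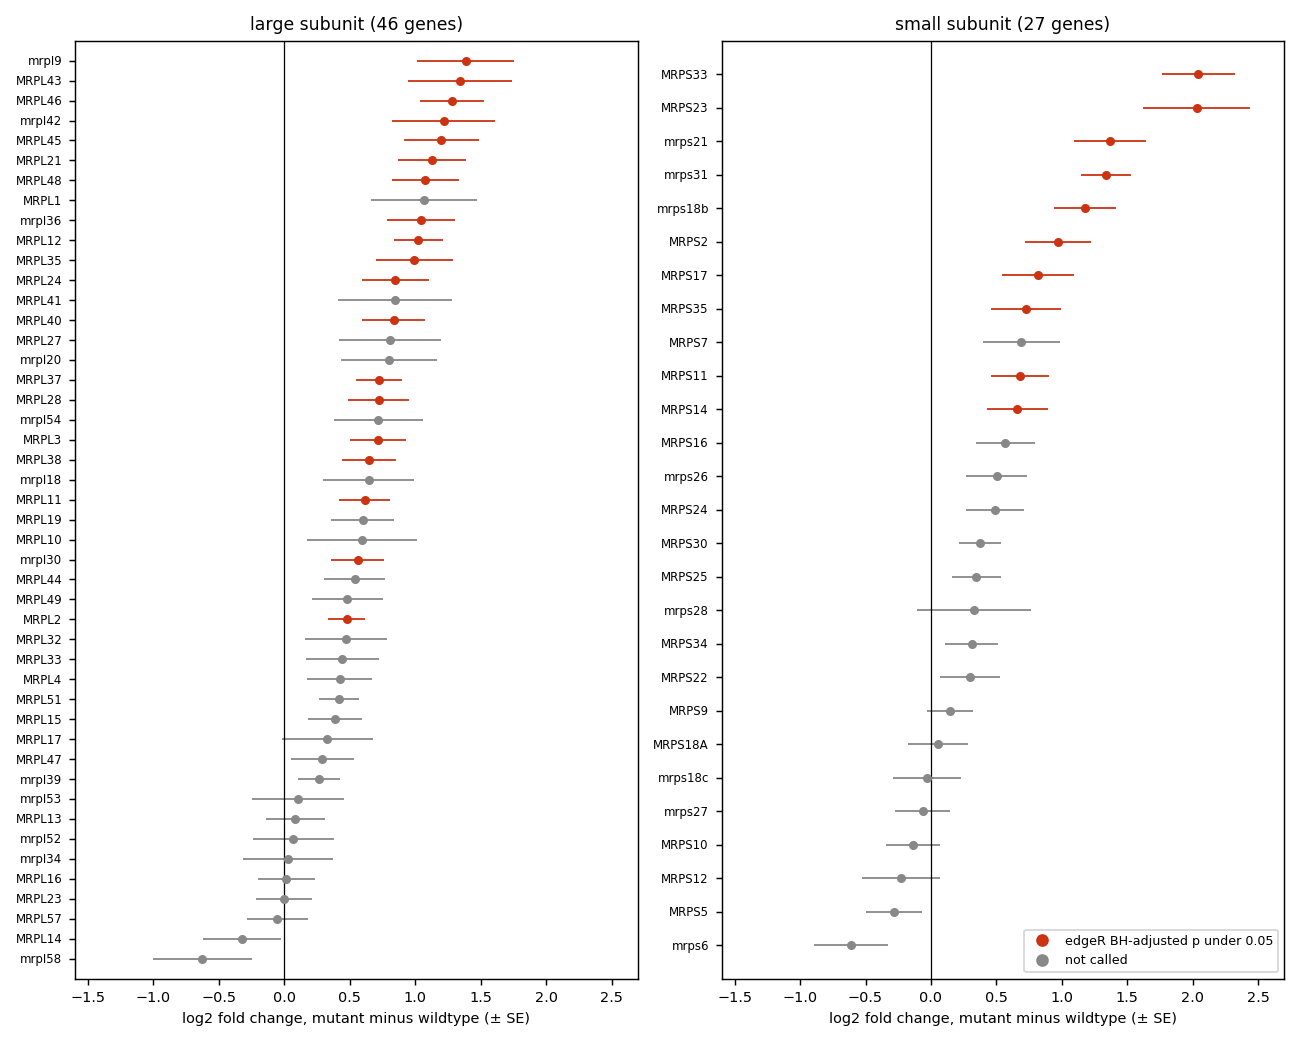
Log2 fold change, mutant minus wildtype averaged over constructs, for each large subunit gene (left) and small subunit gene (right); bars are standard errors and red marks an edgeR adjusted p under 0.05. The 29 red points all lie to the right of 0, and the few estimates to the left of 0 are grey.

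The separation of libraries was read alongside, here and in the other comparisons with TMM scaling only. It was not computed with library totals. In 19 of the 73 genes (26%) every mutant library exceeded every wildtype library, against 9.27% of all genes, and in 0 every mutant library was below, against 9.5%. All 19 were among the 29 called. They were MRPL2, MRPL3, mrpl9, MRPL12, MRPL21, mrpl36, MRPL37, MRPL40, mrpl42, MRPL43, MRPL46 and MRPL48 of the large subunit and MRPS2, MRPS17, mrps18b, mrps21, MRPS23, mrps31 and MRPS33 of the small subunit. By group mean, mutant CA-Stat3 was the highest of the 6 groups for 60 of the 73 genes and the lowest for 0. Mutant WT-Stat3 was the highest for 5 genes and the lowest for 15. The rank of the groups was not computed for all genes.

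MRPS33 (ENSDARG00000020015), a small subunit protein with no bacterial counterpart, had the largest difference. It was at 3.76 and 6.80 CPM with WT-Stat3 and at 5.74, 6.59 and 6.98 CPM with CA-Stat3 in wildtypes. In siblings it was at 7.78 and 5.83 CPM with WT-Stat3 and at 4.67, 6.45 and 2.77 CPM with CA-Stat3. In mutants it was at 23.8 and 10.5 CPM with WT-Stat3 and at 24.9, 43.0 and 31.3 CPM with CA-Stat3. Every mutant library was above all 10 others, and wildtypes and siblings overlapped. The log2 fold change was 2.04 ± 0.28 against wildtypes (SE, adjusted p = 6.79e-05), a ratio of 4.12, and 2.07 ± 0.28 against siblings (adjusted p = 8.01e-05).

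MRPS23 (ENSDARG00000033973), another small subunit protein of mitochondrial origin, was a low transcript outside the mutants. Its levels were 1.41 and 2.87 CPM with WT-Stat3 and 1.37, 3.18 and 0.997 CPM with CA-Stat3 in wildtypes. The mutants had 4.30 and 13.9 CPM with WT-Stat3 and 4.61, 10.9 and 7.19 CPM with CA-Stat3. The highest value, 13.9, was that of the library that stood apart, and the other 4 mutant libraries were still above every wildtype and sibling library. MRPS23 was higher by 2.03 ± 0.41 on the log2 scale against wildtypes (edgeR adjusted p = 0.0017) and by 1.90 ± 0.41 against siblings (adjusted p = 0.00325). Without that library the difference from wildtypes was 1.51.

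The small subunit gene mrps31 (ENSDARG00000057855), also specific to mitochondria, spread little within the wildtypes and siblings. It was at 9.76 and 9.82 CPM with WT-Stat3 and at 10.4, 9.53 and 9.69 CPM with CA-Stat3 in wildtypes. Siblings had 11.4 and 9.29 CPM with WT-Stat3 and 11.4, 11.2 and 11.3 CPM with CA-Stat3. Mutants had 25.6 and 15.0 CPM with WT-Stat3 and 23.3, 37.8 and 29.5 CPM with CA-Stat3, above all others. The difference was 1.34 ± 0.19 against wildtypes (adjusted p = 8.9e-05) and 1.20 ± 0.19 against siblings (adjusted p = 0.000302).

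The gene mrps21 (ENSDARG00000070985) encodes the counterpart of bacterial ribosomal protein S21 in the small subunit. Wildtypes had 2.59 and 2.87 CPM with WT-Stat3 and 4.37, 3.06 and 6.70 CPM with CA-Stat3, and mutants 6.79 and 9.06 CPM with WT-Stat3 and 8.07, 14.1 and 10.7 CPM with CA-Stat3. The gap was narrow, since the lowest mutant library was at 6.79 and the highest wildtype library at 6.70. It was higher by 1.37 ± 0.28 against wildtypes (edgeR adjusted p = 0.00164) and by 1.32 ± 0.28 against siblings (adjusted p = 0.0025). MRPS33, MRPS23, mrps21 and mrps31 kept their call against wildtypes under every alternative run.

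In the large subunit the largest called differences were those of mrpl9 and MRPL43. The gene mrpl9 (ENSDARG00000063249), the counterpart of bacterial L9, was at 2.59 and 2.72 CPM with WT-Stat3 and at 2.62, 1.65 and 1.43 CPM with CA-Stat3 in wildtypes. It was at 7.47 and 2.79 CPM with WT-Stat3 and at 4.61, 6.20 and 9.03 CPM with CA-Stat3 in mutants, where replicate 2 of WT-Stat3 was barely above the wildtypes. Siblings, at 1.38 to 4.13 CPM, overlapped both. The difference from wildtypes was 1.39 ± 0.37 (edgeR adjusted p = 0.0105) and was no longer called without replicate 1 of mutant WT-Stat3 (0.89, adjusted p = 0.136). MRPL43 (ENSDARG00000076334), a protein added in mitochondria, was at 0.624 to 2.82 CPM in wildtypes, 1.23 to 3.64 in siblings and 3.89 to 6.08 in mutants. Its difference from wildtypes was 1.34 ± 0.40 (adjusted p = 0.0192), and 1.15 (adjusted p = 0.0912) without replicate 1 of wildtype WT-Stat3.

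**Figure D3:**
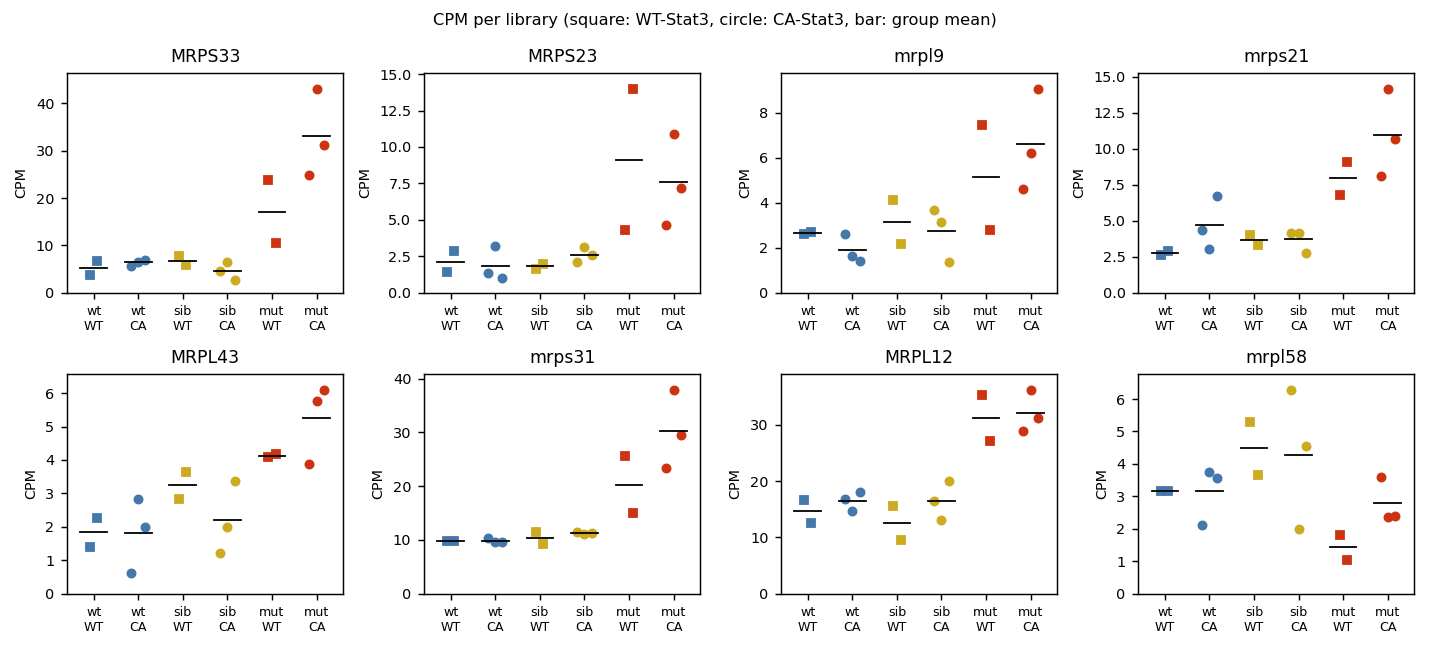
CPM in each library for 8 genes, by group (wt wildtype, sib sibling, mut mutant; WT and CA name the Stat3 construct); points are libraries and bars group means. Mutant points lie above the wildtype points for the first 7 genes, whereas for mrpl58 they lie below 4 of the 5 sibling points.

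By place in the ribosome, as known from the human structure, genes called against wildtypes were found at each of the sites listed except ribosome rescue. Against siblings 0 of the 5 genes at the peptidyl transferase centre and core were called. Of the 3 proteins of the stalk, which recruits translation factors, 2 were higher against wildtypes. MRPL12, the counterpart of bacterial L7/L12 and the stalk's repeated subunit, was at 12.5 to 18.1 CPM in wildtypes, 9.48 to 19.9 in siblings and 27.2 to 36.1 in mutants. The mutant range lay clear of both others, and the difference was 1.02 ± 0.18 against wildtypes (edgeR adjusted p = 0.000668) and 1.14 ± 0.19 against siblings (adjusted p = 0.000415). MRPL11, at the stalk base, was higher than in wildtypes by 0.61 ± 0.20 (adjusted p = 0.027), or 0.63 (adjusted p = 0.0547) without the library that stood apart, but its siblings, at 11.5 to 16.7 CPM, lay within the mutant range of 11.5 to 23.5 and the difference from them was 0.12 ± 0.19. The difference of 0.59 ± 0.42 for MRPL10, the stalk anchor, was not called.

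Around the exit tunnel and the membrane, 2 of 5 genes were higher. MRPL45, which in mammals ties the ribosome to the inner membrane, averaged 6.59 ± 3.06 CPM in wildtypes and 14.7 ± 4.14 in mutants, with 1 wildtype library at 11.6 inside the mutant range of 10.5 to 19.7. Its difference was 1.20 ± 0.28 against wildtypes (edgeR adjusted p = 0.00494) and 0.93 ± 0.28 against siblings (adjusted p = 0.0224). MRPL24, the counterpart of a bacterial protein beside the tunnel exit, was higher by 0.85 ± 0.26 (adjusted p = 0.021). MRPL23, also at the exit, was not called, at 13.9 ± 3.11 CPM in wildtypes and 14.4 ± 4.20 in mutants, and neither MRPL44 (0.54 ± 0.23) nor MRPL47 (0.29 ± 0.24) was called.

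Of 5 proteins at or near the peptidyl transferase centre and the core, 2 were higher against wildtypes. MRPL2, one of the core proteins next to the catalytic centre, rose from 21.5 ± 2.47 to 30.7 ± 3.37 CPM (log2 fold change 0.48 ± 0.14, edgeR adjusted p = 0.0176), the smallest of the called changes. MRPL3 was higher by 0.72 ± 0.22 (adjusted p = 0.0202). MRPL16 was at 0.02 ± 0.22, MRPL4 at 0.42 ± 0.25 and MRPL27 at 0.81 ± 0.39, none of them called.

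Of 6 small subunit proteins near the decoding site and the messenger RNA path, 2 were higher. MRPS2 was at 3.32 to 6.12 CPM in wildtypes and 6.92 to 15.0 in mutants and differed by 0.97 ± 0.25 (edgeR adjusted p = 0.0088). The value of 15.0 was that of the library that stood apart, without which the difference was 0.68 ± 0.25 and not called (adjusted p = 0.0685). MRPS11, at the platform where the message leaves, differed by 0.68 ± 0.22 (adjusted p = 0.0313). MRPS12, the counterpart of the bacterial decoding protein S12, had an estimate of -0.23 ± 0.29 and MRPS5 of -0.28 ± 0.21, and neither was called.

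The gene mrpl58 (ENSDARG00000078835) encodes a peptidyl-tRNA hydrolase that sits in the large subunit and in mammals frees stalled ribosomes, and it was the member with the lowest estimate against wildtypes. It was at 3.18 and 3.17 CPM with WT-Stat3 and at 2.12, 3.76 and 3.56 CPM with CA-Stat3 in wildtypes. Siblings had 5.31 and 3.64 CPM with WT-Stat3 and 6.26, 2.01 and 4.54 CPM with CA-Stat3, and mutants 1.81 and 1.05 CPM with WT-Stat3 and 3.6, 2.35 and 2.4 CPM with CA-Stat3. The groups overlapped. It was lower in mutants than in siblings on the log2 scale (-1.10 ± 0.37, edgeR adjusted p = 0.0383), and the estimate of -0.63 ± 0.38 against wildtypes was not called (adjusted p = 0.228). The call against siblings was lost in limma (-0.99, adjusted p = 0.176), with mutant and sibling libraries alone (-1.11, adjusted p = 0.0625), with libraries thinned to equal depth (-1.22, adjusted p = 0.0693) and without any one of 6 libraries, where the estimate was -1.10 to -0.89.

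Called genes came from proteins of both origins. Against wildtypes, 11 of 28 large subunit genes with a bacterial counterpart were higher (median 0.59) and 8 of 20 proteins of the large subunit specific to mitochondria (median 0.59), a class that includes MRPS30 and MRPS18A, which carry small subunit names but sit in the large subunit of the human ribosome. In the small subunit, 5 of 15 with a bacterial counterpart (median 0.49) and 5 of 10 specific to mitochondria (median 0.61) were higher. None of these classes held a gene called lower than in wildtypes. Divided at the median abundance, 17 of the 37 more abundant and 12 of the 36 less abundant genes were higher, with medians of 0.56 and 0.62. The difference between such classes was not tested.

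Position was read from the RefSeq annotation of assembly GRCz12tu, a later build than the one of the counts, and only for neighbours. Another protein-coding gene overlapped 17 of the 73 genes, and 9 of these 17 were called higher against wildtypes, against 20 of the 56 without an overlap. No source used here states how strand was handled, so reads of those 17 may include reads of the partner. The 9 called were mrpl9, MRPL24, MRPL45, mrps18b, MRPL40, MRPS35, MRPL37, MRPL11 and MRPL2, so the limit holds for their values given above. The same gene, mllt11, overlapped both mrpl9 and MRPL24, which lay on either side of prcc. MRPL46 and MRPS11 were the single pair of these genes with no other protein-coding gene between them, and both were higher. MRPL46 (ENSDARG00000016307) was at 3.32 to 5.87 CPM in wildtypes, 4.05 to 6.25 in siblings and 7.93 to 15.4 in mutants, which did not overlap with the rest (1.28 ± 0.24 against wildtypes, edgeR adjusted p = 0.00104). MRPS11 was at 5.13 to 9.76 CPM in wildtypes and 9.06 to 15.6 in mutants.

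Against siblings, 18 of the 73 genes were higher in mutants and 1, mrpl58, was lower by edgeR. Among all genes 12.4% were called higher and 13.9% lower, against 24.7% and 1.37% of these genes. The called higher genes were 9 in the large and 9 in the small subunit, and the medians were 0.35 and 0.40, beside -0.02 for all genes. Without the library that stood apart the medians were 0.51 and 0.52, beside -0.02 for all genes. In 13 of the 73 genes (17.8%) every mutant library exceeded every sibling library, against 8.01% of all genes, and in 0 every mutant library was below, against 7.71%. This comparison uses the same mutant libraries as the one with wildtypes, so the pair are not independent. The count of 19 genes called in either direction was 10 without replicate 2 of mutant CA-Stat3. Of all genes 3749 were called in that fit, against 4729 in the main fit. The count of these genes also fell without either library of sibling WT-Stat3, which leaves 1 library in that group.

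The values against both sets of controls were set side by side for MRPL28 and MRPL3. MRPL28, the counterpart of bacterial L28, was higher by 1.16 ± 0.24 against siblings (edgeR adjusted p = 0.00241) and by 0.72 ± 0.24 against wildtypes (adjusted p = 0.0313). It was at 11.9 to 24.5 CPM in wildtypes, 11.9 to 17.6 in siblings and 14.5 to 56.8 in mutants, and the value of 56.8 was that of the library that stood apart. Without it the difference was 0.91 ± 0.25 against siblings (adjusted p = 0.0197) and 0.47 ± 0.25 against wildtypes, where it was not called (adjusted p = 0.196). MRPL3 was at 6.41 to 9.76 CPM in wildtypes, 9.03 to 12.9 in siblings and 10.8 to 20.1 in mutants, so that siblings lay between, and its difference from siblings was 0.24 ± 0.21 and not called.

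Between siblings and wildtypes 0 of the 73 genes were called, as were 0% of all genes by edgeR. DESeq2 and limma called 0 of the 73 as well, and 12 and 0 of all genes. At an unadjusted p under 0.05 there were 4 (5.48%, against 9.5% of all genes), all of the large subunit, namely MRPL11 (0.49), MRPL3 (0.48), MRPL38 (0.43) and MRPL37 (0.41). The medians were 0.23 for the large and 0.06 for the small subunit, beside 0.01 for all genes. Estimates were above 0 for 33 of 46 large and 19 of 27 small subunit genes, against 9234 of all 18020. By mean CPM, siblings were higher than wildtypes for 34 of 46 large and 14 of 27 small subunit genes. The order of mean CPM was wildtype below sibling below mutant for 32 of 46 large and 13 of 27 small subunit genes. These counts by mean CPM were not made for all genes. In 0 genes every sibling library exceeded every wildtype library, against 0.982% of all genes.

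**Figure D4:**
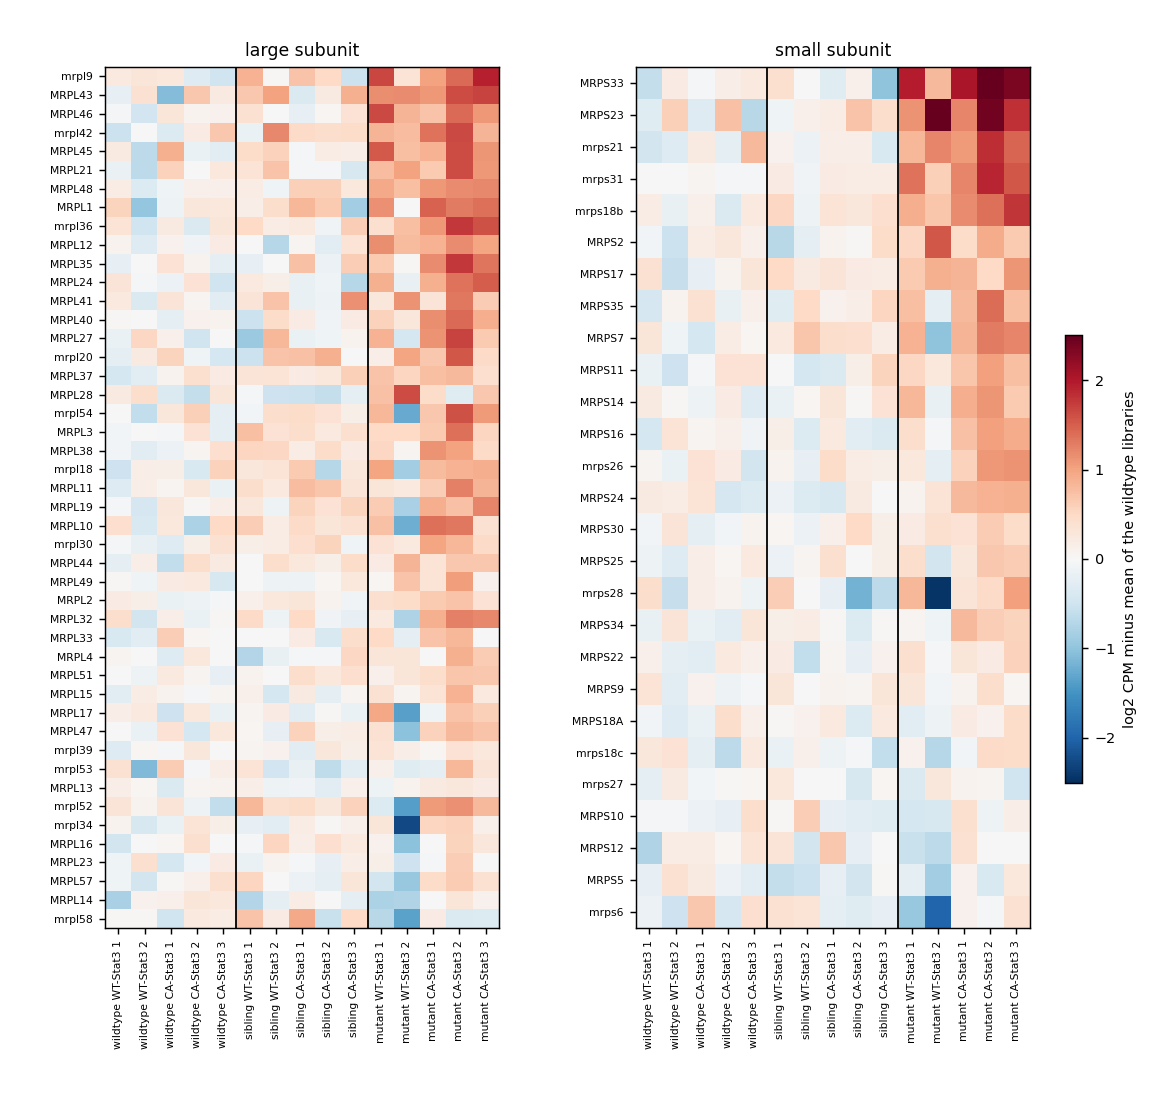
Log2 CPM of each gene in each library minus the mean of the 5 wildtype libraries, large subunit left and small subunit right, ordered by the difference between mutants and wildtypes; black lines part the genotypes. Red fills most of the mutant CA-Stat3 columns, and replicate 2 of mutant WT-Stat3 shows red and blue genes side by side.

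The mutant difference was then read within each construct, from separate libraries. With WT-Stat3, 9 of the 73 genes were higher in mutants than in wildtypes and 0 lower by edgeR, against 6.14% and 5.94% of all genes. With CA-Stat3, 25 were higher and 0 lower, against 7.26% and 7.43%. In shares of these genes that was 12.3% and 34.2%. The medians with WT-Stat3 were 0.43 for the large and 0.17 for the small subunit, beside -0.03 for all genes, and with CA-Stat3 they were 0.81 and 0.62, beside -0.01. The count with WT-Stat3 was 3 in limma, 2 with library totals and 0 when the WT-Stat3 libraries of both genotypes were fitted alone. Beside these, 998, 2303 and 961 of all genes were called, against 2177 with WT-Stat3 in the main fit. The count of these genes also fell without any one of the wildtype or mutant WT-Stat3 libraries, which leaves 1 library in a group. The count with CA-Stat3 was 6 without replicate 2 and 14 without replicate 3 of the mutants, 14, 13 and 9 without wildtype replicates 1, 2 and 3, and 15 with library totals. Of all genes 2646 were called in the main fit, and 1383 and 1612 without those mutant replicates. The calls of all genes were 1966, 1651 and 1611 without those wildtype replicates and 2348 with library totals.

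The leading genes with WT-Stat3 were MRPS23 (2.07 ± 0.64, edgeR adjusted p = 0.045), MRPS33 (1.73 ± 0.44, adjusted p = 0.0174) and MRPL46 (1.61 ± 0.38, adjusted p = 0.0133). Each of these calls was lost without at least 1 library of the pair: MRPS33 was at 0.94 (adjusted p = 0.211) and MRPL46 at 1.07 (adjusted p = 0.117) without mutant replicate 1, and MRPS23 at 1.02 (adjusted p = 0.468) without mutant replicate 2. They were also lost without a wildtype library, MRPS33 (1.30, adjusted p = 0.161) and MRPS23 (1.57, adjusted p = 0.253) without replicate 1 and MRPL46 (1.36, adjusted p = 0.119) and MRPS23 (2.59, adjusted p = 0.0928) without replicate 2. With CA-Stat3 the leading genes were MRPS33 (2.35 ± 0.35, adjusted p = 0.000346), MRPS23 (1.99 ± 0.52, adjusted p = 0.0157) and mrpl9 (1.78 ± 0.47, adjusted p = 0.0167). MRPS33 kept this call without any one library. The calls of MRPS23 and mrpl9 were each lost without 3 of the libraries, to adjusted p-values between 0.0635 and 0.0889, with estimates of 1.64 to 1.82 for MRPS23 and 1.49 to 1.69 for mrpl9.

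Over the 73 genes, 54 had estimates above 0 in both constructs, 5 below 0 in both and 14 of opposite sign. The sign was the same for 80.8% of these genes and for 74.6% of all genes. Across genes, which are not independent replicates, Pearson's r between the constructs was 0.63 for these 73 and 0.64 for all genes. The estimate was larger with CA-Stat3 for 56 of 73 genes, and for 9205 of all 18020 genes. The test of that difference itself, the interaction of construct with genotype, called 0 of the 73 and 0% of all genes by edgeR, and 0 of the 73 with DESeq2 and with limma, with 3 (4.11%) at an unadjusted p under 0.05, against 5.16% of all genes. Its median was 0.34 for the large and 0.50 for the small subunit, beside 0.01 for all genes.

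The widest such gap was that of mrpl52 (ENSDARG00000090568), a large subunit protein specific to mitochondria. It was at 2.49 and 1.05 CPM in mutants with WT-Stat3 and at 7.06, 7.48 and 5.90 CPM in mutants with CA-Stat3, while wildtypes were at 4.12 and 3.47 CPM with WT-Stat3 and at 4.12, 2.94 and 1.99 CPM with CA-Stat3. The mutant constructs did not overlap, with WT-Stat3 below and CA-Stat3 above most wildtype libraries. The interaction was 2.19 ± 0.60, with an unadjusted p of 0.0021 that did not pass the adjustment (0.926).

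**Figure D5:**
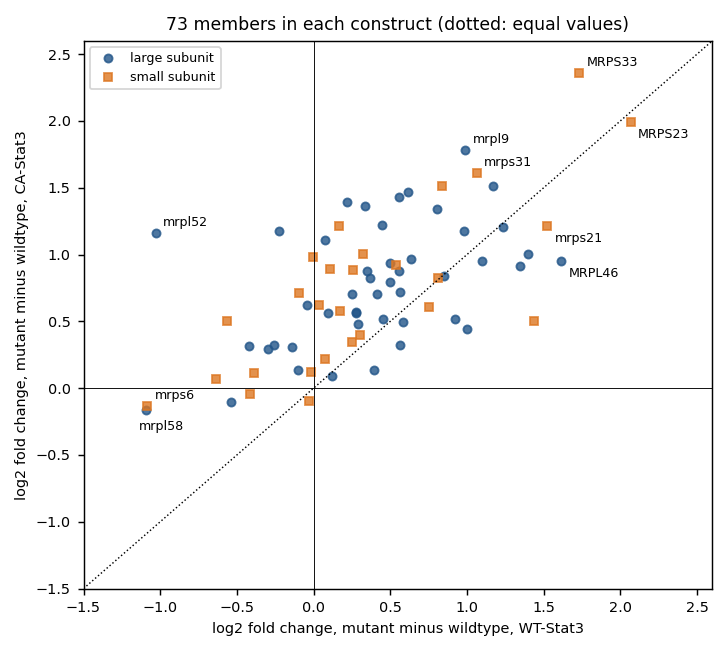
Log2 fold change of each gene, mutant minus wildtype, with WT-Stat3 (horizontal) and with CA-Stat3 (vertical); circles are large and squares small subunit genes, and the dotted line marks equal values. Of the 73 points, 56 lie above the dotted line, and among all 18020 genes tested (not drawn) 9205 would.

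Against siblings within a construct, 4 genes were higher and 1 lower with WT-Stat3, against 3.88% and 3.6% of all genes, or 5.48% and 1.37% of these genes, so that the share was close to the background. They were led by MRPS23 (2.29), MRPS2 (1.63 ± 0.40, edgeR adjusted p = 0.0232) and MRPL28 (1.51, adjusted p = 0.023), whose calls were lost without either sibling library and without mutant replicate 2. The gene called lower was mrps6 (ENSDARG00000039543), the counterpart of bacterial S6, at 3.17 and 1.39 CPM in mutants and 8.49 and 8.20 CPM in siblings with WT-Stat3 (-1.80, adjusted p = 0.026). With CA-Stat3 mrps6 was at 6.92, 6.20 and 8.48 CPM in mutants and 5.40, 5.16 and 5.53 CPM in siblings, higher in each mutant library, and was not called. The count of 5 was 8 in DESeq2, 1 in limma and 0 in the fit of these libraries alone. Beside these, 2007, 537 and 278 of all genes were called, against 1347 in the main fit. The count also changed without any one of these sibling or mutant libraries, which leaves 1 library in a group. The mrps6 call was lost without either sibling library, without mutant replicate 2 (-1.39, adjusted p = 0.198), in limma and in the fit of these libraries alone.

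With CA-Stat3, 14 genes were higher in mutants than in siblings and 0 lower by edgeR, against 7.49% and 8.31% of all genes, or 19.2% and 0% of these genes. MRPS33 led (2.81, adjusted p = 0.000114), followed by MRPL24 (1.63 ± 0.33, adjusted p = 0.00341) and mrps21 (1.54). MRPL24 was at 12, 16.9 and 18.8 CPM in these mutants and 5.53, 5.88 and 3.75 CPM in the siblings, with no overlap. The count was 5 and 8 without mutant replicates 2 and 3, and 6 without sibling replicate 2. Of all genes 1372, 1487 and 1751 were called in these fits, against 2847 in the main fit.

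Between the Stat3 constructs themselves, 0 of the 73 genes were called in the average of the genotypes, in wildtypes, in siblings or in mutants, as were 0% of all genes in each by edgeR. DESeq2 and limma also called 0 of the 73, while DESeq2 called 133, 3, 1 and 56 of all genes in these comparisons and limma 1 in the average. At an unadjusted p under 0.05 there were 12 of the 73 (16.4%, against 12.7% of all genes) in the average and 16 (21.9%, against 10.2%) in mutants. In wildtypes there was 1 (1.37%, against 4.02%) and in siblings 1 (1.37%, against 4.18%). The medians, CA-Stat3 minus WT-Stat3, were 0.25 for the large and 0.23 for the small subunit in the average, beside 0.04 for all genes. In mutants they were 0.42 and 0.54, beside 0.03, with 67 of 73 estimates above 0, against 9475 of all 18020. In siblings they were -0.04 and 0.11. The largest estimates in mutants were those of mrpl52 (1.86 ± 0.46, adjusted p = 0.368), mrps6 (1.58) and MRPL57 (1.21). Leaving out replicate 1 of mutant WT-Stat3 left the library that stood apart as the only one of its group. The medians in the average were then 0.29 for the large and 0.33 for the small subunit, beside 0.10 for all genes. Without the library that stood apart they were 0.19 and 0.17, beside 0.05. For these fits the medians of the 73 genes within mutants were not computed.

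Markers of other cell types also differed in mutants, beside the mutant differences given here, though not all to the same extent against siblings. Of 10 tested macrophage and neutrophil markers 9 were lower and 0 higher in mutants than in wildtypes by edgeR, and their sum was 1131 to 2314 CPM in wildtypes, 938 to 2490 in siblings and 105 to 473 in mutants. Connective tissue markers were lower for 7 of 9, with sums of 1088 to 1944, 624 to 2577 and 319 to 625. Neural markers were lower for 5 of 7, with sums of 148 to 367, 296 to 545 and 88.7 to 250. Epidermal markers were lower for 3 of 7 (406 to 1570, 272 to 1888 and 255 to 880) and muscle markers for 2 of 6 (158 to 458, 40.3 to 2255 and 51.2 to 201). Erythroid markers were higher for 5 of 8, with sums of 525 to 1308, 734 to 2508 and 1040 to 2823 CPM. Against siblings 8 of 10 macrophage and neutrophil, 8 of 9 connective tissue and 6 of 7 neural markers were lower. So were 1 of 7 epidermal and 3 of 6 muscle markers, and 3 of 8 erythroid markers were higher. The erythroid median was 0.86 for siblings minus wildtypes and 0.63 for mutants minus siblings. A troponin row with the symbol TNNT2 was the sole marker row at 0 in all libraries. Whether these shifts have a part in the differences of the mitochondrial ribosome genes was not tested.

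The rest of the mitochondrial translation machinery was read from lists of known genes, with the shares of all genes called, 13.9% higher and 14.8% lower, as the background. Of 5 ribosomal proteins with other names, 1 (20%) was higher against wildtypes and 0 lower, namely AURKAIP1 (0.58 ± 0.21, edgeR adjusted p = 0.0477), and 0 were called with library totals alone. DAP3, a GTP-binding protein of the small subunit, was at 0.36 ± 0.16 and not called. Of 14 mitochondrial translation factors 7 (50%) were higher and 0 lower (median 0.77), or 3 and 0 with library totals. TUFM, the elongation factor that brings aminoacyl-tRNA, rose from 33.3 ± 6.93 CPM in wildtypes to 64.0 ± 12.8 in mutants (0.90 ± 0.17, adjusted p = 0.000947). MRRF, the ribosome recycling factor, was higher by 1.09 ± 0.25 (adjusted p = 0.00413) and the release factor gene mtrf1 by 1.22 ± 0.33 (adjusted p = 0.0112). Against siblings 4 of the 14 factors (28.6%) were higher and 0 lower, beside 12.4% and 13.9% of all genes. TUFM was among them (1.01, edgeR adjusted p = 0.000517), whereas MRRF (0.35, adjusted p = 0.302) and mtrf1 (0.74, adjusted p = 0.0972) were not called.

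Of 26 genes for ribosome assembly and modification of its RNA, 4 were higher against wildtypes, a share of 15.4% close to the background, and 0 lower (median 0.72), or 2 and 0 with library totals. Against siblings 6 (23.1%) were higher and 0 lower (median 0.48), beside 12.4% and 13.9% of all genes. Single genes below are given against wildtypes. LRPPRC, which stabilises mitochondrial messenger RNA, rose from 49.3 ± 6.41 to 94.8 ± 25.4 CPM (1.0 ± 0.15, edgeR adjusted p = 0.000127), and fastkd2, which in mammals is needed for the large subunit's RNA, was higher by 1.16 ± 0.29 (adjusted p = 0.00653). Of 28 genes of mitochondrial DNA expression and protein quality control 16 (57.1%) were higher and 1 lower against wildtypes (median 0.93). Against siblings 11 (39.3%) were higher and 1 lower. The import chaperone HSPA9 rose from 119 ± 14 to 331 ± 65.6 CPM (1.47 ± 0.15, adjusted p = 4.17e-06), tbrg4, an RNA-binding protein of the FASTK family, was higher by 1.93 ± 0.21, and SUPV3L1, the helicase of mitochondrial RNA decay, by 1.82 ± 0.23. The one lower gene was TFAM, which packages mitochondrial DNA and starts its transcription, at 17.8 ± 1.98 CPM in wildtypes and 9.70 ± 5.09 in mutants (-1.09 ± 0.26, adjusted p = 0.00548).

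The products and partners of these ribosomes were read in the same way. Of 13 genes encoded in mitochondrial DNA 5 (38.5%) were higher and 0 lower against wildtypes (median 0.44), MT-CO1 among them (0.70 ± 0.12, edgeR adjusted p = 0.000403), and 1 and 0 with library totals. Of 82 nuclear genes of the respiratory chain 8 (9.76%, under the background) were higher and 2 lower (median 0.14), or 4 and 2 with library totals. Of 18 mitochondrial aminoacyl-tRNA synthetases and related enzymes 4 (22.2%) were higher and 0 lower (median 0.18), or 2 and 1 with library totals. Of 80 genes for proteins of the cytosolic ribosome 0 were higher and 24 (30%) lower (median -0.29), or 0 and 47 with library totals. Against siblings 3 genes of mitochondrial DNA (23.1%) were higher and 0 lower, and 7 of the respiratory chain (8.54%) were higher and 1 lower. For the synthetases it was 2 (11.1%) and 1, and for the cytosolic ribosome 0 and 29 (36.2%). The background against siblings was 12.4% higher and 13.9% lower. These lists were chosen with results of these data known, and the differences between lists were not tested.

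Among 17 nuclear regulators of mitochondrial genes 3 (17.6%) were higher and 4 (23.5%) lower against wildtypes (median -0.22), or 3 and 7 with library totals. Against siblings 2 (11.8%) were higher and 3 (17.6%) lower. Single genes below are given against wildtypes. The gene gabpb2a, a subunit of the GA-binding factor, was higher by 0.95 ± 0.14 (edgeR adjusted p = 0.000143), while GABPA, its DNA-binding partner, was not called (-0.22, adjusted p = 0.201). The coactivator gene pprc1 was higher by 0.87 ± 0.17 (adjusted p = 0.00153). NRF1, a transcription factor of nuclear genes for mitochondria, was lower, at 37.3 ± 8.84 CPM in wildtypes and 24.1 ± 3.90 in mutants (-0.60 ± 0.18, adjusted p = 0.0177), as was atf4b of the stress response (-0.81 ± 0.17, adjusted p = 0.00268).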

How the data were processed

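The authors deposited 1 table of raw counts, whole numbers for each Ensembl gene in each of 15 libraries (6 groups, 5 libraries per genotype). The submitters' processing notes name Trim Galore, STAR 2.4.2a, Picard, featureCounts, DESeq2 and build GRCz10, without roles or order. Settings for strand, duplicates and multi-mapping reads were not given in the sources used here. Symbols came from a gene name table, which matched 26269 of 32105 identifiers.

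The tests used edgeR 4.0.16 under R 4.3.3. The filterByExpr step (minimum count 10, minimum total 15) kept 18020 genes. After TMM scaling, 1 quasi-likelihood model with a coefficient per group (9 residual degrees of freedom) gave 12 comparisons with Benjamini-Hochberg adjustment over all genes and a threshold of 0.05. A standard error is the size of the log2 fold change divided by the root of its F statistic, and a prior count of 2 entered log2 CPM. The script was tested on simulated data, in the comparison of mutants with wildtypes. Of 100 genes changed by 1 on the log2 scale 39% were called, and of 100 changed by 2, 86%. No call had the wrong sign, and 5 unchanged genes were called. A gene that was not called may therefore still differ. Alternatives were DESeq2 1.42.0, limma 3.58.1 (voom with quality weights), other scalings and filters, a replicate block, thinning and leaving out libraries.

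Genes given in every library were the 6 largest called changes per direction against wildtypes with an average log2 CPM of at least 1, and the 3 largest in other comparisons were named. Other members were named by role. The gene mrpl52 of the interaction was chosen after its values were seen. Members, lists and tests were chosen with earlier results of these data known.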

Additional observations from a re-analysis of the deposited data

How the results depend on the processing

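No gene named for the size of its called change changed sign. Of the medians 1 did, that of the small subunit between siblings and wildtypes (0.06, and -0.03 with libraries thinned to equal depth). Genes named by role were not followed through all alternatives. Among them MRPL23 had a ratio of mutants to wildtypes of 0.999, and a log2 fold change of 0.15 without the library that stood apart. The balance of calls turned against siblings with WT-Stat3, from 4 higher and 1 lower to 3 and 5 without replicate 1 of mutant WT-Stat3, and to 2 and 2 with library totals. The count of genes called against wildtypes was 29 and fell to 18 with no filter on low counts and to 17 with library totals, and lay between 16 and 29 when each library was left out in turn. Of all genes 5169 were called in the main fit, 5393 with no filter and 5257 with library totals. For the 73 genes the count was 28 with RLE size factors, 30 in DESeq2 and 24 in limma, beside 5178, 5502 and 4513 of all genes. With CA-Stat3 the count was 16 with no filter and 15 with library totals, and 6 to 29 with a library left out. With WT-Stat3 it was 3 in limma, 0 in the fit of its own libraries and 2 with library totals, and 1 to 9 with a library left out. Against siblings it was 19 (of all genes 4729), and 13 with no filter (5065), 13 with library totals (12 higher and 1 lower, beside 4671), 14 in the fit of its own libraries (3903) and 15 in limma (3761). It was 10 to 21 with a library left out. Against siblings with CA-Stat3 it was 5 to 20, and with WT-Stat3 it was 8 in DESeq2, 1 in limma, 0 in the fit of its own libraries and 0 to 8. Counts between constructs were 0 to 2 in the average and 0 to 6 in mutants with a library left out. The median of the small subunit against wildtypes was 0.33 with library totals and 0.29 to 0.61 with a library left out, and against siblings 0.26 and 0.22 to 0.52. Large subunit medians moved by less than the replicate spread of 0.16 under every alternative run. With a library left out they were 0.46 to 0.66 against wildtypes and 0.24 to 0.51 against siblings. That spread is pooled over groups, and the SD of the mean log2 CPM was widest in mutant WT-Stat3, at 0.37. The cause of these changes was not tested.

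The replicate numbers did not meet the criterion for pairing, every pair over 0.1. The correlation of same-numbered libraries' deviations had a median of 0.083 with 9 of 33 pairs over 0.1, against -0.028 and 5 of 60 for differently numbered ones. In a group of 2 libraries the deviations mirror each other, so these pairs are not separate and the check cannot exclude pairing. Between CA-Stat3 groups the correlation was -0.015 to 0.274 for same-numbered and -0.22 to 0.082 for differently numbered libraries. With the replicate number as a block, 27 genes were called against wildtypes, 26 of them shared, and 19 against siblings, and no count moved by over 1.5 times. Library totals without scaling factors, also for the sums, and leaving out both mutant WT-Stat3 libraries, were chosen after seeing the data. With both left out, 20 genes were called against siblings with CA-Stat3. A group left with 1 library takes its spread from the rest of the fit. Low counts of single genes limit the precision of the less abundant members.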
